A study of Mus musculus with 12 samples.

Results

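The mRNAs of cholesterol synthesis, of the SREBP system that controls it and of the LXR system that opposes it were followed in mouse neural retina before and after damage. The members were 39 genes chosen by their function, of which 37 had a probe set with a single gene symbol on the Affymetrix Mouse Genome 430 2.0 array. Acat2 and Nr1h2 were not listed in the annotation used here. The 37 genes were covered by 84 of the 45037 probe sets tested, 26 of them by several probe sets, and are part of the 18193 genes that had a probe set of their own. For each gene the probe set with the highest mean level over the 12 arrays stood for the gene. All values below are log2 of the authors' RMA intensities, and a difference of 1 is a 2-fold change.

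The retinas came from male mice of the strains C57BL/6NCrSlc (B6) and 129X1/SvJJmsSlc (129), 10 weeks old. Each strain gave intact retina (normal), explants cultured for 3 days with vehicle (3DIV), and explants cultured for 3 days with CHIR99021 (3DIV with GSK3 inhibitor), each on 2 arrays. Explant culture served as the damage, in which photoreceptors die, and CHIR99021 blocks the kinase GSK3 and so mimics Wnt signalling. The labels give 15 µM of CHIR99021, whereas the methods name this dose and a higher one for explants, and the vehicle was DMSO. The labels call the arrays biological replicates, but do not say whether they came from separate mice, so the p-values measure the spread between these arrays.

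Cholesterol is built from acetyl-CoA through mevalonate, squalene and lanosterol. When sterols in the endoplasmic reticulum run low, SCAP escorts the SREBP proteins to the Golgi, where they are cut to release transcription factors that switch on the genes of synthesis; INSIG proteins hold SCAP back when sterols are plentiful. LXR receptors sense oxysterols and switch on exporters such as ABCA1 and ABCG1, as well as Srebf1. In the retina, photoreceptor outer segments are renewed every day, and Müller glia are a major site of sterol synthesis and apolipoprotein release.

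The arrays resembled each other closely within groups, with Pearson's r across probe sets between 0.9965 and 0.9978. The tissue was not the same mixture of cells throughout. Summed intensities of 7 rod markers lay between 82894 and 85161 in B6 normal retina, 47090 and 50252 in B6 at 3DIV and 29007 and 29037 with the inhibitor, and the corresponding ranges in 129 were 82896 to 83640, 42142 to 45257 and 28225 to 30478. The 9 microglia and macrophage markers summed to 752 to 795, 2379 to 2665 and 1335 to 1358 in B6, and to 546 to 577, 1192 to 1214 and 895 to 897 in 129. Markers of Müller glia, 8 in number, summed to 27602 to 27862, 22680 to 23898 and 24143 to 24830 in B6. In 129 they summed to 31809 to 31895, 23515 to 23972 and 19724 to 22452. Such sums lean on the brightest markers, and single Müller markers went both ways at 3DIV against normal retina. In B6, 5 were called higher and 3 lower (median log2 change 0.43), and in 129, 3 higher and 3 lower (median -0.14). Pigmented epithelium markers, which the dissection should remove, summed to 4023 to 11133 in normal retina of either strain and to 226 to 342 in explants. The lens markers differed between the normal 129 arrays, at 1010 and 23374. No marker was at 0. The part of these shifts in the results below was not tested, and in bulk tissue fewer cells of a type and less RNA per cell cannot be told apart.

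After damage, most of these mRNAs fell. In B6, 26 of 37 members fell and 4 rose at 3DIV against normal retina, where 16.9% of all genes fell and 19.3% rose (36.2% either way). In 129, 19 fell and 3 rose, against 17.0% and 19.1% of all genes (36.2% either way). With the arrays centred on 8 housekeeping genes the split in 129 was 32 falling and 1 rising. Under that centring 30871 of all 45037 probe sets were called lower in 129 and 2916 higher. A fall under that centring was therefore not particular to the members. The median change in 129 was then -0.60 for the members and -0.37 for all probe sets. The 8 genes used for centring were not stable themselves. On the authors' scale 3 of them were called higher and 1 lower at 3DIV in each strain, with changes of up to 1.37 in B6 and 1.58 in 129. On that scale the median change of the members was -0.44 in B6 and -0.26 in 129, beside 0 and -0.01 for all genes. With the GSK3 inhibitor the direction was the opposite. In B6, 17 members were higher and 3 lower with the inhibitor than with vehicle, against 8.59% and 12.5% of all genes (21.1% either way), and in 129, 16 were higher and 1 lower, against 7.28% and 7.86% (15.1% either way). The median inhibitor effect was 0.21 in B6 and 0.23 in 129. The damage and inhibitor counts by role below stand beside these same shares of all genes. The damage and inhibitor comparisons share the 3DIV vehicle arrays, so that a low value there lowers the first and raises the second, and their values are given side by side without a count of shared genes.

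Between the strains, 7 members differed in normal retina (6 higher in 129, 1 lower; 5.41% and 5.83% of all genes, 11.2% either way; 6 higher and 3 lower with cyclic loess), 14 at 3DIV (9 higher and 5 lower; 10.8% and 10.2%, 20.9% either way), and 4 with the inhibitor, all higher in 129 (7.32% of all genes were higher and 5.02% lower, 12.3% either way). The change after damage itself differed between the strains for 8 members, 5 in the direction of a higher value in 129 and 3 in the opposite one, against 1.74% and 1.32% of all genes (3.07% either way). The inhibitor effect differed for 2 members, both smaller in 129, where 0.357% of all genes were called in that direction (0.599% in the other, 0.956% either way). These calls are limma's moderated test with Benjamini-Hochberg adjustment over all 45037 probe sets. Some counts rested on single arrays. The 7 strain differences in normal retina became 4 without B6 normal replicate 1 or 129 normal replicate 1 and 3 without 129 normal replicate 2, the 14 at 3DIV became 9 without 129 3DIV replicate 2, and the 17 inhibitor effects in 129 became 9 without that array and 11 without either 129 inhibitor array. The 4 strain differences with the inhibitor became 2 without B6 inhibitor replicate 2 or any of the 6 arrays of 129. The 8 differences of the damage response became 1 without 129 3DIV replicate 2, 4 without either B6 3DIV array or 129 normal replicate 2, and 5 without B6 normal replicate 1 or 129 normal replicate 1. Centring the arrays on 8 housekeeping genes instead of the authors' scale shifted the median of all probe sets by -0.32 after damage in B6, by -0.34 in 129, and by 0.12 for the inhibitor in B6. The member medians were then -0.76 and -0.60 after damage and 0.33 and 0.26 with the inhibitor.

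**Figure D1:**
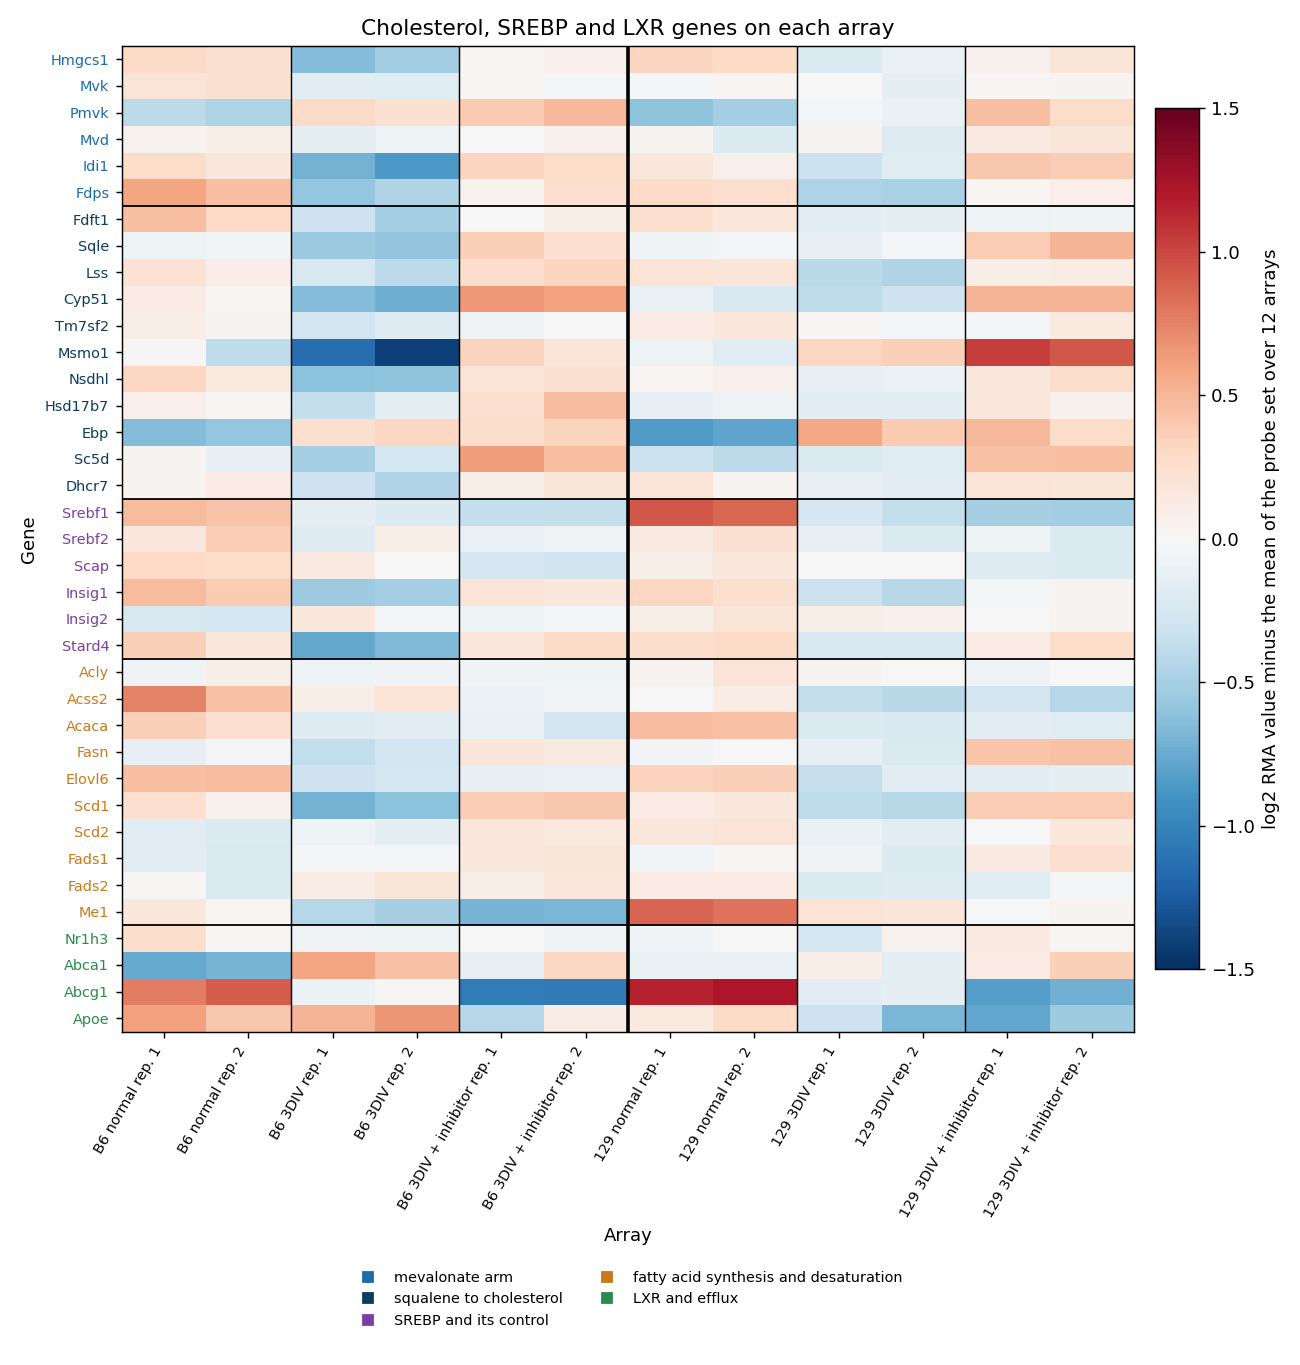
Heat map of the 37 measured genes (rows, coloured by role) on the 12 arrays (columns), as the log2 RMA value minus the mean of that probe set over all arrays. Most genes of the synthesis groups were low on the B6 3DIV arrays and higher on the inhibitor arrays of both strains, whereas Ebp and Pmvk were higher on every explant array than on every normal array.

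Several members, Fdps, Lss and Scd1 among them, fell after damage in B6 and were higher with the inhibitor in both strains. Of the members that did so, the promoters of Hmgcs1, Idi1, Cyp51, Msmo1 and Insig1 are shown as examples. They are the 250 bases before the RefSeq start (GRCm38.p6), written 5′ to 3′ along the gene, with capitals for the motifs searched on both strands: the sterol regulatory element core TCACNCCAC, the CCAAT box (CCAAT or its reverse ATTGG) and the E-box CACGTG, none of which overlap here.
Hmgcs1 (chr13:119690101-119690350, plus strand): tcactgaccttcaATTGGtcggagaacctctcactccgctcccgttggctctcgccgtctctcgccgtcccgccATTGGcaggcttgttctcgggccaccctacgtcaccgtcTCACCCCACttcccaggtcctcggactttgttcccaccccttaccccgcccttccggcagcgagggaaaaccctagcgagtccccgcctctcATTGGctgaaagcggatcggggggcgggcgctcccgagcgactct
Idi1 (chr13:8885356-8885605, plus strand): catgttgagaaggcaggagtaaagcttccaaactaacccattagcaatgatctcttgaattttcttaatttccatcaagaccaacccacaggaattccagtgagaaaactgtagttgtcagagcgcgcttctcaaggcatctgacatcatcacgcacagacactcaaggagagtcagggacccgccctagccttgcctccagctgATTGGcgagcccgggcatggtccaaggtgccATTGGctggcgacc
Cyp51 (chr5:4104698-4104947, minus strand): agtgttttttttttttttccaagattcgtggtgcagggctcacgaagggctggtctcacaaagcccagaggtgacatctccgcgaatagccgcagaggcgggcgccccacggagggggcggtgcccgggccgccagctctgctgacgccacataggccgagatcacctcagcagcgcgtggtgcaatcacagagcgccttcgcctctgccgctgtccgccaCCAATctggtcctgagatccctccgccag
Msmo1 (chr8:64733579-64733828, minus strand): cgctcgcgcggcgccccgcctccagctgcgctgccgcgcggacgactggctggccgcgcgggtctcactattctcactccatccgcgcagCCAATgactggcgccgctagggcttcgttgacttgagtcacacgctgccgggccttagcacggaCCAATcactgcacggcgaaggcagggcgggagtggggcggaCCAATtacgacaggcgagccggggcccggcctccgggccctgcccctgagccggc
Insig1 (chr5:28071162-28071411, plus strand): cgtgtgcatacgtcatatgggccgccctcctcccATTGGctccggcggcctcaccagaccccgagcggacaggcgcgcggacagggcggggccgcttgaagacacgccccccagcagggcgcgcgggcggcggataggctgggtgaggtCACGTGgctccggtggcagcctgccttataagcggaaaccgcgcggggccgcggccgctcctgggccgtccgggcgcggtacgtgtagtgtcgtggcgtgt
RefSeq promoters matched 29 of the 37 measured genes, with 41 promoters in all. The sterol regulatory element core was found in 1 of the 41, that of Hmgcs1, and in 1.05% of 32851 promoters of this length. The CCAAT box was found in 22 of 41 (53.7%, against 33.8% of all promoters), among them 3 copies each in Hmgcs1 and Msmo1. The E-box was found in 6 of 41 (14.6%, against 6.02%), and the LXR element, a direct repeat of AGGTCA with 4 bases between, was found in 0.0152% of all promoters and in 0 of these 41. A match describes the letters only.

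The mevalonate arm turns acetyl-CoA into farnesyl diphosphate. Of its 6 measured genes, 4 fell and 1 rose after damage in B6, and 3 fell and 1 rose in 129; with the inhibitor 3 rose in B6 and 4 in 129, the latter count being 2 without 129 3DIV replicate 2 or 129 inhibitor replicate 1. Idi1 encodes the isomerase that makes the reactive isoprene unit. Its values were 9.71 and 9.60 in B6 normal retina, 8.72 and 8.57 at 3DIV and 9.75 and 9.71 with the inhibitor. In 129 they were 9.60 and 9.51, then 9.11 and 9.25, then 9.83 and 9.80. In each strain the 3DIV arrays lay below both other groups, and the B6 3DIV arrays were the lowest of all. The change after damage was -1.02 (SE 0.08, adjusted p = 5e-06, limma) in B6, a 2.02-fold fall, and -0.38 (adjusted p = 0.00511) in 129, where the call ended without 129 3DIV replicate 1 (adjusted p = 0.0548). The difference between the strains was 0.64 (SE 0.12, adjusted p = 0.0204), and ended without replicate 2 of B6 3DIV, 129 3DIV or 129 normal, or replicate 1 of B6 normal (adjusted p = 0.0621 to 0.0891). The inhibitor raised Idi1 by 1.09 in B6 (adjusted p = 2.34e-05) and 0.64 in 129 (adjusted p = 0.000853).

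Fdps, farnesyl diphosphate synthase, stood at 10.35 and 10.20 in B6 normal retina, 9.17 and 9.30 at 3DIV and 9.80 and 10.00 with the inhibitor. In 129 the values were 10.04 and 10.00, 9.29 and 9.27, and 9.78 and 9.83. The groups did not overlap within either strain. It fell by 1.04 in B6 (SE 0.09, adjusted p = 6.47e-06) and by 0.74 in 129 (adjusted p = 7.92e-05), and rose by 0.66 and 0.53 with the inhibitor (adjusted p = 0.00064 and 0.00353). A dim second probe set of Fdps stood at 0.07 and 0.03 after damage (adjusted p = 0.596 and 0.841) and at 0 and -0.14 with the inhibitor (adjusted p = 0.989 and 0.335). With the mean of the Fdps probe sets the inhibitor effect in 129 was 0.19 and not called (adjusted p = 0.0822). Hmgcs1, the synthase at the entry of the arm, fell by 0.85 in B6 and by 0.46 in 129 (adjusted p = 1.35e-05 and 0.00113) and was 0.44 higher in 129 than in B6 at 3DIV (adjusted p = 0.00276). A dim probe set gave -0.59 for that strain difference (adjusted p = 0.000311). Hmgcs1 was higher in 129 at its brighter other probe sets, with means at 3DIV of 10.36, 10.33 and 7.90 in B6 and 10.90, 10.72 and 8.61 in 129. Its inhibitor effect was 0.64 in B6 (adjusted p = 0.000406) and 0.28 in 129 (adjusted p = 0.0459), the latter call ending without any array but the B6 3DIV pair (adjusted p = 0.052 to 0.238).

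Pmvk, the phosphomevalonate kinase, moved the other way after damage. It stood at 8.86 and 8.79 in B6 normal retina, 9.54 and 9.49 at 3DIV and 9.65 and 9.74 with the inhibitor, and in 129 at 8.65 and 8.75, 9.23 and 9.16, and 9.71 and 9.53. Every explant array lay above every normal array. The rise was 0.69 in B6 (SE 0.08, adjusted p = 9.25e-05) and 0.50 in 129 (adjusted p = 0.000906), and in 129 it was 0.16 and no longer called when the arrays were centred on housekeeping genes (adjusted p = 0.115). Mvk, mevalonate kinase, fell by 0.39 in B6 (adjusted p = 0.00195) and was at -0.07 in 129 (adjusted p = 0.528). Mvd, the decarboxylase, passed in no comparison at its brightest probe set, where its change after damage was -0.18 in B6 and 0.01 in 129 (adjusted p = 0.211 and 0.955). Another probe set of Mvd fell by 0.44 and by 0.34 (adjusted p = 0.00366 and 0.0144) and rose by 0.39 and 0.34 with the inhibitor (adjusted p = 0.0134 and 0.0352).

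**Figure D2:**
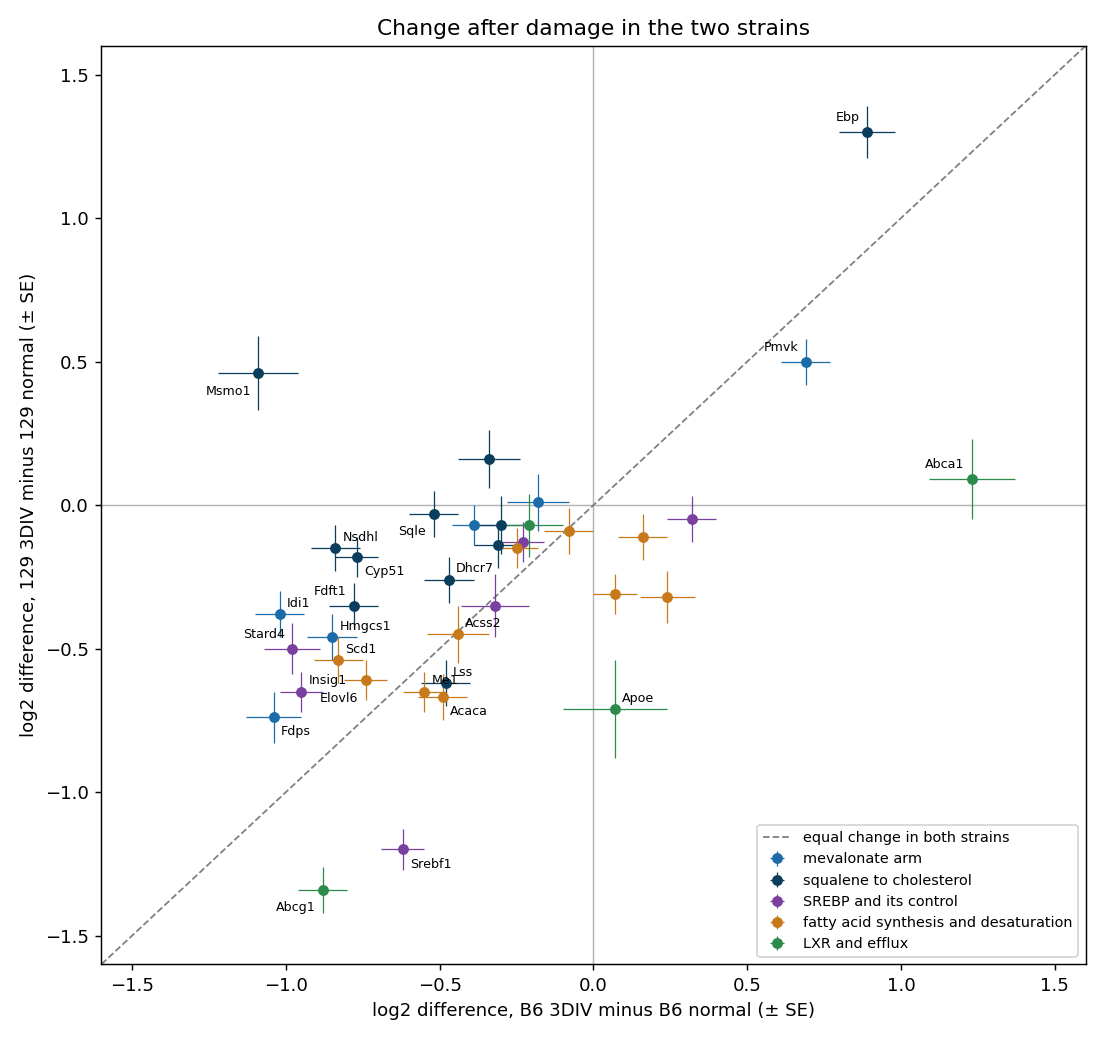
Change after damage (3DIV minus normal, log2) in B6 on the horizontal axis and in 129 on the vertical axis for the 37 genes, with bars of 1 SE; the dashed line marks equal change and genes beyond 0.4 in either strain are named. Msmo1 stood far above the line at -1.09 and 0.46, Abca1 far below it at 1.23 and 0.09, and Ebp and Pmvk lay in the upper right.

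The second arm turns farnesyl diphosphate into squalene, lanosterol and cholesterol. All 11 of its genes passed after damage in B6, 10 falling and Ebp rising. In 129, 3 fell and 2 rose, with 1 falling without 129 normal replicate 1 or 129 3DIV replicate 1, and 1 rising without 129 normal replicate 2 or either 129 3DIV array. With the inhibitor 9 rose in B6 and 7 in 129, the latter being 4 without either 129 3DIV array or 129 inhibitor replicate 1. Of the 8 members whose damage response differed between strains, 4 were in this arm (Sqle, Cyp51, Msmo1 and Nsdhl). Of all genes, 1.74% were called in that direction. Whichever single array was left out, fewer than these 4 were called. At their brightest probe sets all 4 genes fell in B6, whereas in 129 Msmo1 rose and the others were not called. Both differences of the inhibitor effect were in this arm (Msmo1 and Nsdhl). The tests of the damage response and of the inhibitor effect share the 3DIV vehicle arrays with opposite sign. A low B6 value at 3DIV thus raises the difference of the damage response and lowers that of the inhibitor effect. The 2 results are therefore not separate.

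Msmo1, the monooxygenase that removes methyl groups from lanosterol products, gave the largest values of the 37 genes in both of those tests. It stood at 9.59 and 9.19 in B6 normal retina, 8.43 and 8.17 at 3DIV and 9.91 and 9.76 with the inhibitor. In 129 it stood at 9.50 and 9.40, 9.88 and 9.93, and 10.61 and 10.51. At this probe set the strains overlapped in normal retina and were apart in both explant conditions, with 129 higher. Its other, dimmer probe set had the strains apart in normal retina too, at 5.59 and 5.35 in B6 and 6.27 and 6.29 in 129. At the brightest probe set the change after damage was -1.09 in B6 (SE 0.13, adjusted p = 9.02e-05), a 2.13-fold fall, and 0.46 in 129 (adjusted p = 0.0209). The difference of the changes was 1.55 (SE 0.18, adjusted p = 0.00238) and stayed called without any 1 array. The rise in 129 was less firm: it ended without 129 normal replicate 2 or either 129 3DIV array (adjusted p = 0.0703 to 0.109), was 0.12 under housekeeping centring (adjusted p = 0.371) and 0.08 with the mean of the probe sets (adjusted p = 0.577), and a dimmer probe set gave -0.30 there (adjusted p = 0.0384) and -0.10 for the difference of the changes (adjusted p = 0.763). At 3DIV Msmo1 was 1.61 higher in 129 than in B6 (adjusted p = 1.72e-05), and with the inhibitor 0.73 higher (adjusted p = 0.00446). The inhibitor raised it by 1.54 in B6 (adjusted p = 4.73e-05), a 2.91-fold rise, and by 0.65 in 129 (adjusted p = 0.00904), the latter call ending without either 129 3DIV array or 129 inhibitor replicate 1 (adjusted p = 0.052 to 0.0681). The difference of the inhibitor effects, -0.89 (SE 0.18, adjusted p = 0.0472), ended without any array but those of B6 normal retina (adjusted p = 0.0628 to 0.168).

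Cyp51, the lanosterol demethylase, stood at 8.02 and 7.93 in B6 normal retina, 7.25 and 7.17 at 3DIV and 8.55 and 8.51 with the inhibitor. In 129 it stood at 7.79 and 7.67, 7.52 and 7.59, and 8.41 and 8.41. The inhibitor arrays lay above normal retina in both strains. It fell by 0.77 in B6 (SE 0.07, adjusted p = 1.97e-05) and was at -0.18 in 129 (adjusted p = 0.103), a difference of 0.59 (adjusted p = 0.0183) that ended without replicate 2 of B6 3DIV, 129 3DIV or 129 normal, or replicate 1 of B6 normal (adjusted p = 0.0558 to 0.082). The inhibitor raised it by 1.32 in B6 and 0.86 in 129 (adjusted p = 4.45e-06 and 6.6e-05), which are 2.49-fold and 1.82-fold. The strain difference depended on the probe set. Another Cyp51 probe set, of similar level, had means of 7.80 in normal retina and 7.05 at 3DIV in B6, and 7.60 and 7.07 in 129. Its strains overlapped at 3DIV. A dim one had 5.69 and 4.92 in B6, and 4.99 and 5.03 in 129.

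Nsdhl, the dehydrogenase that acts after Msmo1, stood at 8.54 and 8.38, 7.61 and 7.63, and 8.44 and 8.46 in B6 normal, 3DIV and inhibitor arrays. In 129 it stood at 8.26 and 8.30, 8.11 and 8.14, and 8.39 and 8.49. The B6 3DIV arrays were the lowest of the 12. It fell by 0.84 in B6 (adjusted p = 1.09e-05) and was at -0.15 in 129 (adjusted p = 0.156), a difference of 0.68 (SE 0.11, adjusted p = 0.0101; 0.0502 without 129 3DIV replicate 2). The inhibitor raised it by 0.83 in B6 (adjusted p = 7.03e-05) and by 0.31 in 129 (adjusted p = 0.0225), the second call ending without any 1 of the 4 arrays compared (adjusted p = 0.0541 to 0.136). The difference of the inhibitor effects, -0.52 (adjusted p = 0.0456), ended without the same 10 arrays (adjusted p = 0.0685 to 0.169). Sqle, squalene epoxidase, stood at 9.05 and 9.08, 8.57 and 8.53, and 9.48 and 9.37 in B6, and at 9.07 and 9.10, 9.00 and 9.10, and 9.51 and 9.64 in 129. Its normal levels coincided between the strains, and its 3DIV arrays fell below them in B6 alone without overlap. The changes after damage were -0.52 (adjusted p = 0.000434) and -0.03 (adjusted p = 0.817), and their difference of 0.49 (adjusted p = 0.0445) ended without any 1 of the 12 arrays (adjusted p = 0.0512 to 0.165). The inhibitor raised Sqle by 0.87 in B6 and 0.52 in 129 (adjusted p = 5.66e-05 and 0.0018).

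**Figure D3:**
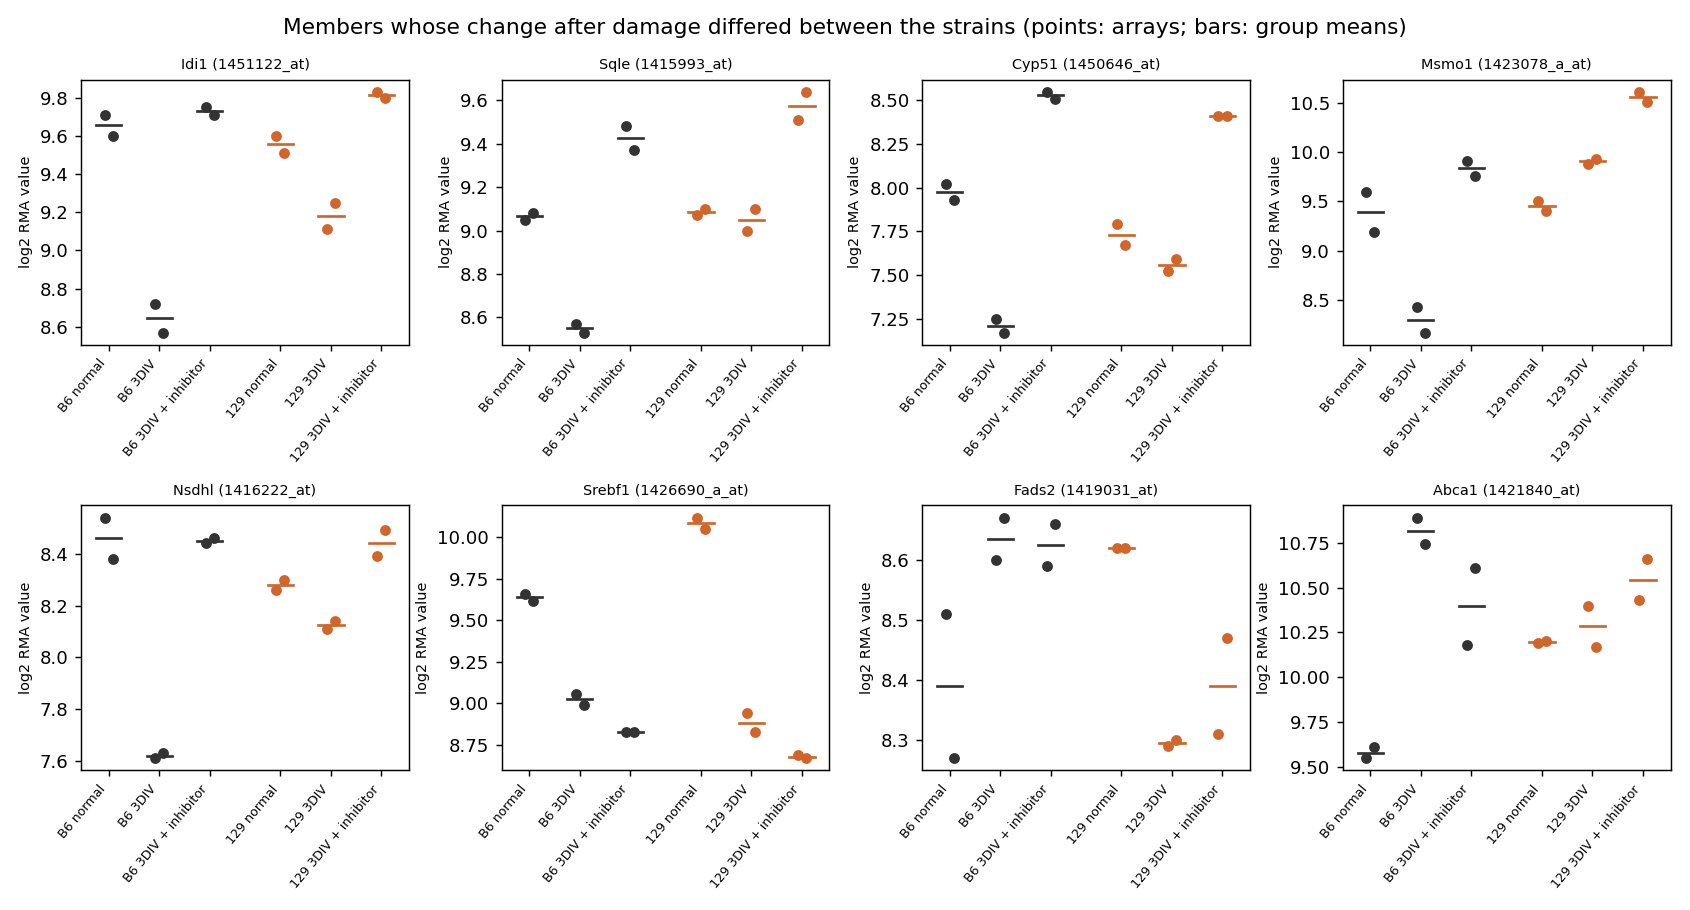
Log2 RMA values of the 8 genes whose change after damage differed between the strains, by group, with a point for each array and a bar for the group mean (B6 black, 129 orange). For Idi1, Cyp51, Sqle, Msmo1 and Nsdhl the B6 3DIV arrays were the lowest of the 12, whereas Srebf1 was highest in normal 129 retina and Abca1 lowest in normal B6 retina and highest in B6 at 3DIV.

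Ebp, the sterol isomerase of this arm, rose after damage instead. It stood at 8.98 and 9.05 in B6 normal retina, 9.87 and 9.94 at 3DIV and 9.89 and 9.97 with the inhibitor, and in 129 at 8.78 and 8.84, 10.21 and 10.02, and 10.12 and 9.91. All explant arrays lay above all normal arrays, with and without inhibitor. The rise was 0.89 in B6 (SE 0.09, adjusted p = 3.68e-05) and 1.30 in 129 (adjusted p = 1.8e-06), a 2.47-fold change, and the inhibitor effects were 0.03 and -0.10 (adjusted p = 0.886 and 0.575). Sc5d, the sterol desaturase, stood at 8.30 and 8.13, 7.76 and 7.99, and 8.88 and 8.71 in B6 and at 7.94 and 7.86, 8.04 and 8.08, and 8.70 and 8.71 in 129. Its inhibitor arrays were the highest in each strain. The inhibitor raised it by 0.92 and 0.65 (adjusted p = 0.000154 and 0.00195), while its fall of 0.34 after damage in B6 (adjusted p = 0.0205) ended without B6 normal replicate 1 or B6 3DIV replicate 1 (adjusted p = 0.132 to 0.169), and another probe set gave -0.50 in 129 (adjusted p = 0.000896) where this one gave 0.16 (adjusted p = 0.272). Lss, lanosterol synthase, fell in both strains, by 0.48 and by 0.62 (adjusted p = 0.00077 and 0.000109), and rose with the inhibitor by 0.61 and 0.53 (adjusted p = 0.000492 and 0.00164). Fdft1, squalene synthase, fell by 0.78 in B6 and by 0.35 in 129 (adjusted p = 4.3e-05 and 0.00869; 0.0519 to 0.0626 in 129 without 129 normal replicate 1 or 129 3DIV replicate 1), and its inhibitor effects were 0.45 (adjusted p = 0.00408) and 0.08 (adjusted p = 0.638). Dhcr7, which reduces dehydrocholesterol in the last step, fell by 0.47 in B6 (adjusted p = 0.00131), and Hsd17b7 and Tm7sf2, a ketoreductase and a sterol reductase, changed by -0.30 and -0.31 there (adjusted p = 0.0378 and 0.0112), calls that ended without B6 normal replicate 1 or B6 3DIV replicate 1 and, for Hsd17b7, also without B6 normal replicate 2 or either 129 3DIV array (adjusted p up to 0.261 and 0.0786). In normal retina the strain differences of the 11 genes ran from -0.31 (Sc5d, adjusted p = 0.0674) to 0.07 at the brightest probe sets. Some other probe sets lay further apart. One of Sc5d gave 0.55 there (adjusted p = 0.00167). Those of Msmo1, Cyp51 and Hsd17b7 had means of 5.47, 5.69 and 7.49 in B6 and 6.28, 4.99 and 6.95 in 129.

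The genes that control SREBP did not move as a block. Of 6, 5 fell and Insig2 rose after damage in B6 (3 falling without B6 normal replicate 2 or either 129 3DIV array), and 4 fell in 129; with the inhibitor 2 rose in each strain and Scap fell in B6. The 2 rising in 129 became 0 without replicate 2 of 129 3DIV or of the 129 inhibitor group. Insig1, which holds SCAP in the endoplasmic reticulum and is itself a target of SREBP, fell by 0.95 in B6 (SE 0.07, adjusted p = 2.96e-06) and by 0.65 in 129 (adjusted p = 5.13e-05). It rose with the inhibitor by 0.71 in B6 (adjusted p = 0.000139) and 0.38 in 129 (adjusted p = 0.0077; 0.057 to 0.0738 without 129 3DIV replicate 2 or 129 inhibitor replicate 2). Stard4, which carries cholesterol between membranes, fell by 0.98 and by 0.50 (adjusted p = 1.13e-05 and 0.00129). It rose with the inhibitor by 0.94 in B6 (adjusted p = 8.39e-05) and 0.43 in 129 (adjusted p = 0.0107). The call in 129 ended without either 129 3DIV array or 129 inhibitor replicate 2, at 0.35 to 0.43. At 3DIV Stard4 was 0.49 higher in 129 (adjusted p = 0.00303). Another Stard4 probe set, of similar level, had means at 3DIV of 6.94 in B6 and 7.06 in 129. A dim one had 4.55 and 5.15.

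Srebf1, which encodes SREBP1, stood at 9.66 and 9.62 in B6 normal retina, 9.06 and 8.99 at 3DIV and 8.83 and 8.83 with the inhibitor. In 129 it stood at 10.12 and 10.05, 8.94 and 8.83, and 8.69 and 8.67. It was highest in normal 129 retina, and the strain order in normal retina was not kept in the explants. The strain difference was 0.44 in normal retina (SE 0.07, adjusted p = 0.0022) and -0.14 at 3DIV (adjusted p = 0.191). It fell by 0.62 in B6 (adjusted p = 6.9e-05) and by 1.20 in 129 (adjusted p = 3.89e-07), a difference of -0.59 (SE 0.10, adjusted p = 0.0155) that ended without B6 3DIV replicate 1, 129 normal replicate 1 or 129 3DIV replicate 2 (adjusted p = 0.0543 to 0.0726). The inhibitor effect was -0.20 in each strain (adjusted p = 0.0828 and 0.102), unlike the rises of the synthesis genes. Srebf2, which encodes SREBP2, the main activator of cholesterol synthesis, fell by 0.32 and by 0.35 (adjusted p = 0.0454 and 0.0298), calls that ended in B6 without any array but B6 normal replicate 1 and B6 3DIV replicate 2 (adjusted p up to 0.325) and in 129 without any 1 of the 4 arrays compared (up to 0.148), and its inhibitor effects were -0.03 and 0.03 (adjusted p = 0.903 and 0.891). Another Srebf2 probe set, of similar level, gave 0.25 with the inhibitor in B6 (adjusted p = 0.0424). In 129 its group means were 7.33 at 3DIV and 7.60 with the inhibitor. Scap stood at 10.41 and 10.39, 10.24 and 10.10, and 9.86 and 9.81 in B6 and at 10.20 and 10.27, 10.11 and 10.10, and 9.92 and 9.91 in 129. It was lowest with the inhibitor. Its inhibitor effect was -0.33 in B6 (adjusted p = 0.00979; 0.062 to 0.0756 without B6 3DIV replicate 1 or B6 inhibitor replicate 2) and -0.19 in 129 (adjusted p = 0.118). The B6 call for Scap also ended with housekeeping centring, at -0.21 (adjusted p = 0.0748), and with the mean of its probe sets, at -0.16 (adjusted p = 0.143). Insig2 rose by 0.32 in B6 after damage (adjusted p = 0.0094), a call that ended without B6 3DIV replicate 1, at 0.23. It turned to -0.01 under housekeeping centring, while another of its probe sets gave -0.21 (adjusted p = 0.0454). That other probe set also gave 0.21 after damage in 129 (adjusted p = 0.0465), where the brightest gave -0.05 (adjusted p = 0.665). With the inhibitor in B6 it gave 0.44 (adjusted p = 0.00199), against -0.12 (adjusted p = 0.331). Its difference of the inhibitor effects was -0.55 (adjusted p = 0.0279), against 0.06 (adjusted p = 0.861).

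**Figure D4:**
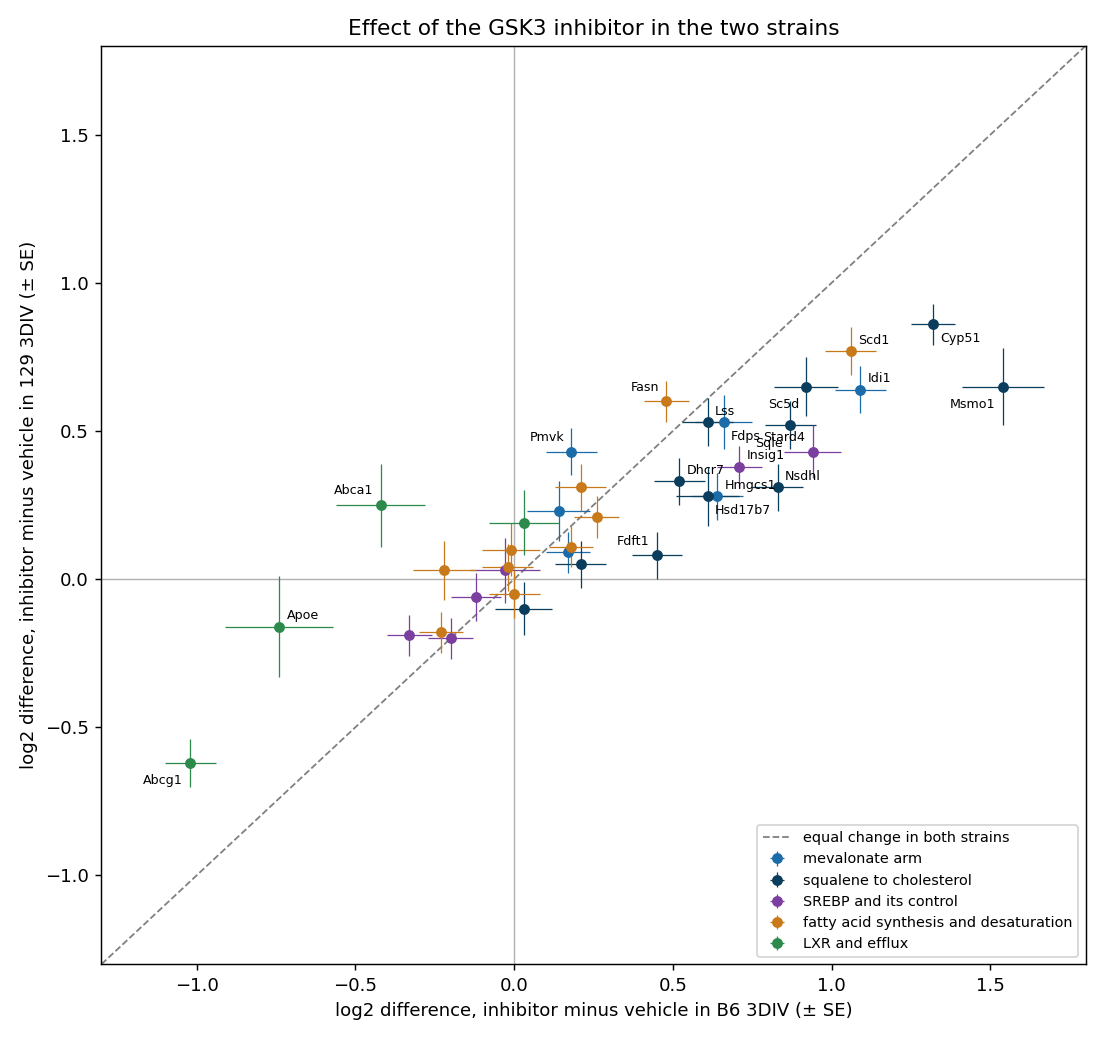
Inhibitor effect (inhibitor minus vehicle at 3DIV, log2) in B6 on the horizontal axis and in 129 on the vertical axis for the 37 genes, with bars of 1 SE; the dashed line marks equal effects and genes beyond 0.4 in either strain are named. Cyp51, Msmo1, Idi1 and Scd1 rose most in B6, at 1.06 to 1.54, and Abcg1 fell most in both strains, at -1.02 and -0.62.

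Fatty acid synthesis and desaturation genes, the targets of SREBP1, fell after damage as well, with 6 of 10 falling in B6 and 7 in 129 (4 without 129 normal replicate 2), and with the inhibitor 3 rose in each strain. Scd1, which makes monounsaturated fatty acids, stood at 7.29 and 7.11 in B6 normal retina, 6.33 and 6.42 at 3DIV and 7.41 and 7.45 with the inhibitor, and in 129 at 7.16 and 7.20, 6.66 and 6.62, and 7.41 and 7.42. The groups were separate within each strain, with the inhibitor arrays highest. It fell by 0.83 and by 0.54 (adjusted p = 1.6e-05 and 0.000359) and rose with the inhibitor by 1.06 and 0.77 (adjusted p = 2.11e-05 and 0.00019). Fasn, fatty acid synthase, rose with the inhibitor by 0.48 and 0.60 (adjusted p = 0.00148 and 0.000683). Elovl6 and Acaca, an elongase and the acetyl-CoA carboxylase, fell and were not called with the inhibitor at their brightest probe sets. Elovl6 fell by 0.74 and by 0.61 (adjusted p = 2.41e-05 and 9.5e-05), with inhibitor effects of 0.18 and 0.11 (adjusted p = 0.134 and 0.415), and a dimmer probe set gave 0.37 and 0.20 after damage (adjusted p = 0.00185 and 0.045) and -0.37 with the inhibitor in B6 (adjusted p = 0.00429). Acaca fell by 0.49 and by 0.67 (adjusted p = 0.000672 and 6.64e-05), with inhibitor effects of -0.02 and 0.04 (adjusted p = 0.894 and 0.785). Acly, ATP citrate lyase, passed in no comparison at its brightest probe set, and another gave 0.34 after damage in B6 (adjusted p = 0.0194).

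Me1, the malic enzyme that supplies NADPH for synthesis, kept a strain difference in every condition. It stood at 10.25 and 10.12 in B6 normal retina, 9.66 and 9.60 at 3DIV and 9.40 and 9.41 with the inhibitor, and in 129 at 10.97 and 10.91, 10.30 and 10.27, and 10.09 and 10.13. Each 129 group lay above the B6 group of the same condition without overlap, by 0.75, 0.65 and 0.71 (SE 0.07; adjusted p = 6.82e-05, 0.000143 and 0.000108). It fell by 0.55 in B6 and by 0.65 in 129 after damage (adjusted p = 0.000175 and 4.84e-05). Acss2, an acetyl-CoA synthetase, was lower in 129. It stood at 8.68 and 8.37, 8.03 and 8.14, and 7.84 and 7.89 in B6 and at 7.94 and 8.05, 7.58 and 7.52, and 7.66 and 7.50 in 129. The strain differences were -0.53 in normal retina (adjusted p = 0.00762; 0.0536 to 0.0643 without B6 normal replicate 1 or 129 normal replicate 1), -0.54 at 3DIV (adjusted p = 0.00447) and -0.29 with the inhibitor (adjusted p = 0.12). A dim probe set gave 0.03 and 0.01 for the first 2 of them (adjusted p = 0.916 and 0.981). Another, of similar level to the brightest, had means of 8.51 in B6 and 7.90 in 129 normal retina, and of 7.99 and 7.49 at 3DIV.

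Fads2, a polyunsaturated fatty acid desaturase, stood at 8.51 and 8.27, 8.60 and 8.67, and 8.59 and 8.66 in B6 and at 8.62 and 8.62, 8.29 and 8.30, and 8.31 and 8.47 in 129. At this probe set the strains overlapped in no explant condition, with 129 lower, by -0.34 at 3DIV (adjusted p = 0.0235). The mean of its probe sets gave -0.23 there (adjusted p = 0.0543). Another probe set gave 0.13 at 3DIV (adjusted p = 0.436) and 0.47 with the inhibitor in B6 (adjusted p = 0.0101), against -0.01 at the brightest. A further one had means at 3DIV of 6.59 in B6 and 6.10 in 129. The values that follow are from the brightest probe set. The changes after damage were 0.24 in B6 (adjusted p = 0.0624) and -0.32 in 129 (adjusted p = 0.0186; 0.0726 to 0.0802 without any 1 of the 4 arrays compared), and their difference of -0.57 (adjusted p = 0.0445) ended without any array but B6 normal replicate 1 (adjusted p = 0.0509 to 0.138). Scd2, the main desaturase of neural tissue, was 0.36 higher in 129 normal retina (adjusted p = 0.00966; 0.0516 to 0.0636 without B6 normal replicate 2 or 129 normal replicate 2), and its probe sets disagreed: after damage in B6 they gave 0.07 (the brightest, adjusted p = 0.51), -0.60 (adjusted p = 0.0468) and -0.58 (adjusted p = 0.000165). Fads1 changed by 0.16 and -0.11 after damage (adjusted p = 0.152 and 0.303) and by 0.31 with the inhibitor in 129 (adjusted p = 0.0232, 0.057 to 0.174 without 129 3DIV replicate 2 or either 129 inhibitor array).

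**Figure D5:**
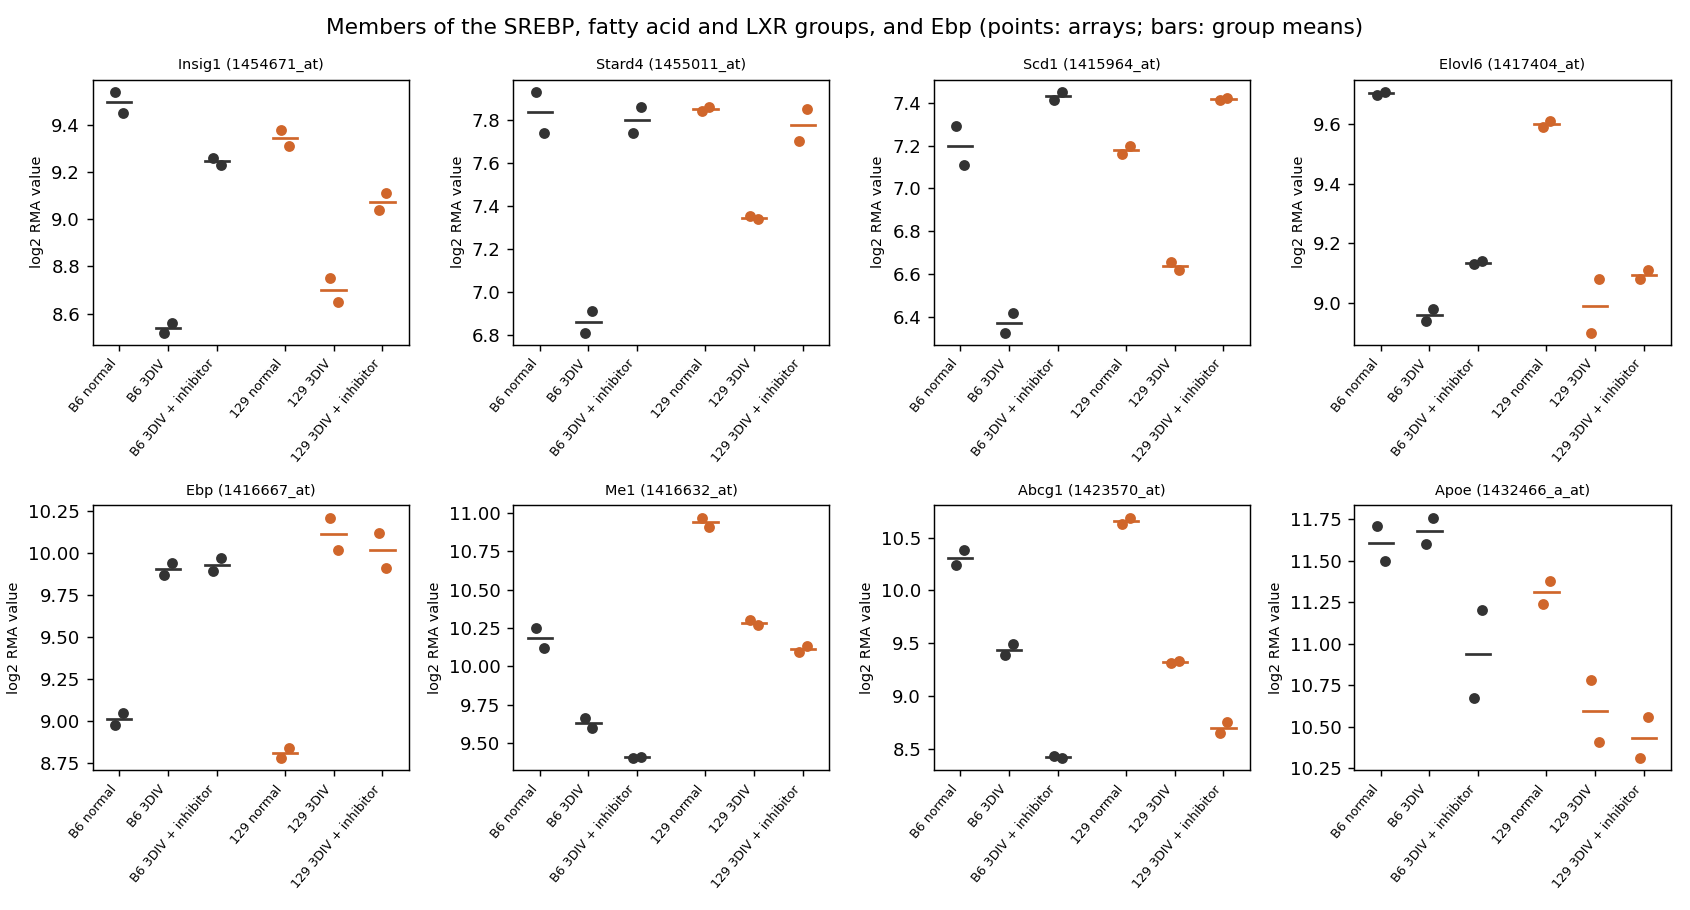
Log2 RMA values by group for 8 further genes, with a point for each array and a bar for the group mean (B6 black, 129 orange). Insig1, Stard4 and Scd1 were low at 3DIV and higher with the inhibitor, Elovl6 stayed low, Ebp stayed high, Me1 was higher in 129 in each condition, and Abcg1 fell at each step in both strains.

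The LXR and efflux genes behaved unlike one another. Of the 4 measured, Nr1h3, which encodes LXRα, was dim, at 5.12 to 5.64 on all arrays and below the median level of all probe sets, and passed in no comparison. Abcg1, a cholesterol exporter, stood at 10.24 and 10.38 in B6 normal retina, 9.39 and 9.49 at 3DIV and 8.43 and 8.41 with the inhibitor. In 129 it stood at 10.63 and 10.69, 9.31 and 9.33, and 8.65 and 8.75. It fell without overlap at each step in both strains. It fell by 0.88 after damage in B6 (SE 0.08, adjusted p = 9.66e-06) and by 1.34 in 129 (adjusted p = 3.37e-07), a 2.53-fold fall, and the inhibitor effect was -1.02 and -0.62 (adjusted p = 2.4e-05 and 0.000736). A second probe set gave -0.75 and -1.07 after damage and -0.74 and -0.44 with the inhibitor (adjusted p = 4.63e-05, 2.76e-06, 0.0002 and 0.00603).

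Abca1, the exporter that loads cholesterol onto apolipoproteins, stood at 9.55 and 9.61 in B6 normal retina, 10.89 and 10.74 at 3DIV and 10.18 and 10.61 with the inhibitor. In 129 it stood at 10.19 and 10.20, 10.40 and 10.17, and 10.43 and 10.66. The B6 arrays were the lowest in normal retina and the highest at 3DIV. The rise after damage was 1.23 in B6 (SE 0.14, adjusted p = 5.07e-05), a 2.35-fold change, and 0.09 in 129 (adjusted p = 0.668). The difference was -1.14 (SE 0.19, adjusted p = 0.0146), and ended without B6 3DIV replicate 1 or 129 3DIV replicate 2 (adjusted p = 0.0564 to 0.0668). The strain difference was 0.61 in normal retina (adjusted p = 0.0144; 0.0519 to 0.0752 without any 1 of the 4 arrays compared) and -0.53 at 3DIV (adjusted p = 0.02; 0.123 to 0.151 without B6 3DIV replicate 1 or 129 3DIV replicate 2). With the mean of the Abca1 probe sets these 3 strain calls ended, the difference of the changes being -0.69 (adjusted p = 0.0579) and the strain differences 0.40 in normal retina (adjusted p = 0.0665) and -0.30 at 3DIV (adjusted p = 0.121). The other probe sets of Abca1, both dim, gave 0.24 and 0.37 after damage in B6 (adjusted p = 0.263 and 0.0688). Apoe, the apolipoprotein of retinal glia, stood at 11.71 and 11.50, 11.60 and 11.76, and 10.67 and 11.20 in B6 and at 11.24 and 11.38, 10.78 and 10.41, and 10.31 and 10.56 in 129. The B6 inhibitor arrays lay far apart, and at 3DIV both 129 arrays lay below both B6 arrays. It was at 0.07 after damage in B6 (adjusted p = 0.793) and -0.71 in 129 (adjusted p = 0.00916; 0.0606 to 0.0865 without 129 normal replicate 2 or 129 3DIV replicate 2), so that at 3DIV it was lower in 129 than in B6 by 2.12-fold (-1.08, SE 0.17, adjusted p = 0.00144). The inhibitor effect in B6 was -0.74 (adjusted p = 0.0133; 0.0909 to 0.0987 without B6 3DIV replicate 2 or B6 inhibitor replicate 1). In B6 the summed microglia and macrophage markers, like Abca1, were highest at 3DIV. In 129 their sum also rose at 3DIV, where Abca1 was not called. At 3DIV 8 of the 9 markers were called lower in 129 than in B6, against 10.2% of all genes. Abca1 and Apoe were lower there too, and the part of the marker cells in the result was not tested.

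Of all genes, 16.9% fell and 19.3% rose after damage in B6, and 17.0% fell and 19.1% rose in 129. With the inhibitor 8.59% of all genes rose and 12.5% fell in B6, and 7.28% rose and 7.86% fell in 129. Beside these shares, 9 further SREBP-responsive genes were counted. After damage 4 fell and 1 rose in B6, and 5 fell and 2 rose in 129. With the inhibitor 1 rose and 3 fell in B6, and 3 rose and 3 fell in 129. The 3 rising in 129 became 0 or 1 without any 1 of the 4 arrays compared, and the 3 falling became 1 without 129 3DIV replicate 1 or 129 inhibitor replicate 1. The 1 rising in B6 became 0 without B6 3DIV replicate 2 and 2 without either 129 inhibitor array, and the 2 rising after damage in 129 became 1 without either 129 normal array or 129 3DIV replicate 1. Vldlr, a lipoprotein receptor, fell by 1.01 and by 0.84 (adjusted p = 1.37e-05 and 4.98e-05) and was at 0.10 and -0.03 with the inhibitor (adjusted p = 0.538 and 0.869). Lpin1, a phosphatidate phosphatase, fell by 0.93 and by 0.89 with the inhibitor (adjusted p = 0.000143 and 0.000275). Elovl5, an elongase, rose by 0.84 and 0.49 after damage (adjusted p = 1.99e-05 and 0.000926) and was -0.73 and -0.41 with the inhibitor (adjusted p = 0.000244 and 0.00888, the latter ending without 129 3DIV replicate 1 or 129 inhibitor replicate 1). Of 7 measured LXR-responsive genes beyond the members, damage lowered 3 and raised 1 in B6, and lowered 4 and raised 1 in 129. Pltp, the phospholipid transfer protein, fell by 1.48 and by 0.96 (adjusted p = 1.35e-05 and 0.00029), Abcg4, a sterol exporter of neural tissue, by 0.71 and by 0.95 (adjusted p = 4.02e-05 and 3.86e-06), and Lpcat3, a phospholipid acyltransferase, rose by 0.80 and 0.54 (adjusted p = 8.91e-05 and 0.00132).

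Of 8 measured genes that process SREBP, 1 rose after damage in B6 and 2 in 129. Mbtps1, the protease that makes the first cut of SREBP in the Golgi, fell with the inhibitor by 0.69 and by 0.55 (adjusted p = 0.000151 and 0.00091), and Sec24d, part of the vesicle coat that carries SCAP out of the endoplasmic reticulum, rose after damage by 0.66 and 0.92 (adjusted p = 0.000206 and 1.55e-05). Rnf139, a ubiquitin ligase, rose by 0.34 in 129 (adjusted p = 0.00249) and was at -0.12 in B6 (adjusted p = 0.202). The 7 measured genes of the isoprenoid branch, which leaves the pathway at farnesyl diphosphate, differed by no more than 0.51 in any comparison, and Ggps1, the geranylgeranyl diphosphate synthase, fell by 0.35 in B6 (adjusted p = 0.00472). Of 12 genes of sterol storage, hydroxylation and transport, damage raised 5 and lowered 1 in B6 (3 raised without B6 3DIV replicate 2), and raised 3 and lowered 1 in 129. Ch25h, which makes the oxysterol that blocks SREBP processing and is induced in macrophages, showed the largest change among the members and other pathway genes. It rose by 2.86 in B6 (adjusted p = 3.59e-07) and 1.79 in 129 (adjusted p = 1.15e-05), and was -1.36 and -1.68 with the inhibitor (adjusted p = 0.000365 and 0.000152). The difference of its damage responses was -1.07 (adjusted p = 0.0398), a call that ended without any of the 8 normal and 3DIV vehicle arrays but 129 normal replicate 1 (adjusted p = 0.0545 to 0.15). Clu, a secreted apolipoprotein, rose by 1.01 and 0.86 (adjusted p = 2.52e-06 and 7.61e-06) and was -0.78 and -0.53 with the inhibitor (adjusted p = 9.49e-05 and 0.00135). Apod, an apolipoprotein, rose by 0.84 in B6 (adjusted p = 0.0171; 0.052 to 0.0836 without any 1 of the 4 arrays compared) and was at 0.52 in 129 (adjusted p = 0.117). The microglia and macrophage markers moved with Ch25h, 7 of 9 rising after damage in B6 and 6 of 9 in 129, and their part in its change was not tested.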

How the data were processed

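RNA of whole neural retina was labelled with a 3′ IVT kit and hybridised to Affymetrix Mouse Genome 430 2.0 arrays, 12 in all. The authors summarised the arrays with RMA and deposited linear intensities; the RMA version is not given in any source used here. There is one value per probe set. Intensities were taken to log2, and 64 control probe sets of 45101 were left out. The annotation gave 1 symbol to 34945 of the 45037 probe sets tested, several to 932 and none to 9160. All 12 arrays were fitted in limma 3.58.1 (R 4.3.3) with 1 mean for each of the 6 groups and eBayes without trend or robust setting (4.69 prior and 6 residual degrees of freedom), and each of the 9 comparisons had its own Benjamini-Hochberg adjustment at 0.05. The code was tested on simulated data with known changes.

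The members and lists were chosen with earlier results of these data known. Values on every array are given for members whose response differed between strains and for up to 3 members rising and 3 falling most in each other comparison; from the lists of other pathway genes at most 3 with the largest called change are named. Alternatives were a replicate block, a filter on level, the mean of a gene's probe sets, housekeeping centring, cyclic loess, only the compared groups, a trended and robust eBayes step, and leaving out each array in turn. Sequence differences between the strains under the probes were not examined. The number of arrays limits the precision. Figures were drawn with matplotlib 3.10.9.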

Additional observations from a re-analysis of the deposited data

Results flagged for a closer look

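The change after damage differed between the strains, by an interaction test in limma with Benjamini-Hochberg adjustment over all probe sets, for 8 members. As the 129 change minus the B6 change on the log2 scale, Msmo1 differed by 1.55, Nsdhl by 0.68 and Idi1 by 0.64. Cyp51 differed by 0.59 and Sqle by 0.49, and in the opposite direction Srebf1 by -0.59, Fads2 by -0.57 and Abca1 by -1.14. These values are from the brightest probe sets. A dimmer probe set of Msmo1 gave -0.10 (adjusted p = 0.763, limma). Msmo1 stayed called without any 1 array, and the other 7 did not. Without 129 3DIV replicate 2 only Msmo1 was called.

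The inhibitor effect differed between the strains for 2 members, at -0.89 for Msmo1 and -0.52 for Nsdhl, a smaller rise in 129 than in B6. The 2 calls ended without any of 10 arrays, B6 normal replicates 1 and 2 being the exceptions.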

How the results depend on the processing

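Of the 333 member values tested (37 genes in 9 comparisons) 124 were called, 75 of them also without any 1 array, and no called value changed sign without 1 array. Without each array in turn the number of members called ran from 3 to 7 for the strain difference in normal retina, 9 to 15 at 3DIV and 2 to 4 with the inhibitor, from 23 to 29 for the change after damage in B6 and 16 to 22 in 129, from 18 to 21 for the inhibitor effect in B6 and 9 to 17 in 129, from 1 to 7 for the difference of the damage response and from 0 to 2 for that of the inhibitor effect.

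Arrays with the same replicate number did not deviate together (correlations of -0.107 to 0.0436), so the numbers name arrays only. With the replicate number as a block, 1 member in place of 2 was called for the difference of the inhibitor effect, and the other counts were 7, 14, 3, 30, 22, 20, 16 and 6 in the order above.

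For the strain difference in normal retina, 11 members were called over probe sets above the median level and 4 with only the compared groups. For that with the inhibitor, 2 were called with housekeeping centring, with cyclic loess and with only the compared groups. For the difference of the damage response, a trended and robust eBayes step called 16 and the probe sets above the median level 15. For the difference of the inhibitor effect, 5 were called above the median level, 4 with the mean of a gene's probe sets, 5 with housekeeping centring, 1 with only the compared groups and 8 with a trended and robust step. The cause of these moves was not tested, except that fewer probe sets or arrays entered where the name says so. Among single genes the sign turned for Mvd after damage in 129 (-0.33), Insig2 after damage in B6 (-0.01) and Scd2 after damage in B6 (-0.25) with housekeeping centring, and for Sc5d after damage in 129 (-0.18) and Scd2 after damage in B6 (-0.37) and between the strains at 3DIV (0.52) with the mean of a gene's probe sets.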
